A study of Mus musculus with 4 samples.

Results

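Voltage-gated sodium and potassium channel genes were examined on 4 microarrays of mouse spinal cord and duodenum. The genes were chosen by name, as 33 subunits of these channels, and a gene entered when the RefSeq accession printed beside a spot carried its symbol. Of the 33 genes, 31 were matched, 10 of them sodium channel subunits and 21 potassium channel subunits, out of 32575 genes or identifiers on the array. Scn9a and Scn3b were not analysed here. Each array was hybridised with Cy3-labelled RNA of 1 tissue from male mice aged 20 weeks, and each of the 4 combinations of genotype and tissue had 1 array. The mice were either wild type (WT) littermates or carried the label IP6K2-KO, for a deletion in Ip6k2, which encodes a kinase that makes inositol pyrophosphates. All of them had received the purified diet iVid-neo in place of the standard diet CE-2 during the last 1 week and no food during the final 48 h, so no group was fed. The labels do not say whether the 2 tissues of a genotype came from the same mouse. With 1 array per group there is no replicate, no test was possible, and every difference below is a difference between 2 arrays. The comparison of genotypes addresses whether IP6K2 deletion altered expression in the spinal cord and the duodenum.

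Sodium channels of this family open when the membrane is depolarised and carry the inward current of the action potential. Each has a large alpha subunit that forms the pore and smaller beta subunits that alter gating and bind cell adhesion molecules. Voltage-gated potassium channels open later and return the membrane to rest, and they are tetramers of alpha subunits from one family (Kv1, Kv2, Kv3, Kv4, Kv7, EAG or ERG) joined by auxiliary subunits such as Kv beta or KCNE proteins. In the spinal cord these channels set the firing of motor neurons and interneurons and cluster at nodes of Ranvier and beside them. In the duodenum they are known from enteric neurons, smooth muscle, immune cells and the epithelium, where Kcnq1 and its partner Kcne3 form a potassium channel of the basolateral membrane that sustains chloride secretion.

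Of the 31 matched genes, 4 differed at least 2-fold between the WT and the KO-labelled array of a tissue, and the 300 bases around their start sites are shown because the results below turn on these genes. Each runs 5′ to 3′ on the strand of the gene, from 250 bases before to 50 bases after the start in RefSeq GRCm38.p6, and capitals mark the GC box GGGCGG or its reverse complement. Scn2b and Scn4b, which encode beta subunits, are next to each other among the protein-coding genes of that annotation. The Scn2b window (chr9:45117626-45117925, plus strand) held 2 CpG and was 38.3% G or C, and the Scn4b window (chr9:45138374-45138673, plus strand) held 26 CpG and was 66.3% G or C.
Scn2b: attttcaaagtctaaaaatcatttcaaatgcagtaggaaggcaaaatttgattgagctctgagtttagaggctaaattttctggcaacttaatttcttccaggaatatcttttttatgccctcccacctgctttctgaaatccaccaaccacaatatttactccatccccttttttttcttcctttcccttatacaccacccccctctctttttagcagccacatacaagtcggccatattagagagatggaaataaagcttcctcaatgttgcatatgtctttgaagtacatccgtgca
Scn4b: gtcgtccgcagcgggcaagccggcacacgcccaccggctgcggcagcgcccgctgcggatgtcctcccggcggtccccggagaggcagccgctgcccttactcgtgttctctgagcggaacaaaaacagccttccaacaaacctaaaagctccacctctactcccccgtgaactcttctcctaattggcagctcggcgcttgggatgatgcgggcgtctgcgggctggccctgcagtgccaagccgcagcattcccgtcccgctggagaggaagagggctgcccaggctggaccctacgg
The Scn7a window (chr2:66784861-66785160, minus strand) held 1 GC box, and the Kcna3 window (chr3:107035912-107036211, plus strand) held 2 GC boxes and was 75% G or C.
Scn7a: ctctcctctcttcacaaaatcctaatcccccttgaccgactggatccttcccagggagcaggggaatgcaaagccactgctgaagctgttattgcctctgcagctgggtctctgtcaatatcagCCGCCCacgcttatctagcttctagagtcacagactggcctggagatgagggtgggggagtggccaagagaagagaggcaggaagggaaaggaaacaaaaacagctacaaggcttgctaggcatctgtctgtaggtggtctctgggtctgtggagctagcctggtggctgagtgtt
Kcna3: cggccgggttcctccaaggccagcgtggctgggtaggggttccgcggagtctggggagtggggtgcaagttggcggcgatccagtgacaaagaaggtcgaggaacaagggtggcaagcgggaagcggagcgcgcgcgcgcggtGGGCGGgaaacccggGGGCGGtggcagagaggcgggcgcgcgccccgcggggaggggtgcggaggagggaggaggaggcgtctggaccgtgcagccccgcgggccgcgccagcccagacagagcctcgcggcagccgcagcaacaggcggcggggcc
Over all 32851 promoter windows the median was 7 CpG and 52.7% G or C, and over the 37 windows found for 26 of the genes it was 8 CpG and 56% G or C. A GC box, searched on both strands, was in 13 of the 37 windows and in 35.7% of all windows. The letters TATAAA were in 2 of the 37 windows and in 13.6% of all windows on either strand. The GC box and TATAAA cannot overlap, and a match is a description of the sequence alone. The windows of Scn2b and Scn4b, whose genes had the same direction in the duodenum below, held neither motif and differed in composition.

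The values are the background-subtracted signals that the scanner software gave, in arbitrary units, and a level is the log2 signal minus the 75th percentile of its array. That percentile was 905 on the WT and 971 on the KO-labelled spinal cord array, but 68.0 on the WT and 323 on the KO-labelled duodenum array. Probes well above background in the software's own test were 76.7% and 77.4% of all in the spinal cord and 51.6% and 66.3% in the duodenum, so the WT duodenum array limits what follows. All 10 neuronal marker genes were well above background on both spinal cord arrays and all 8 markers of gut epithelium on both duodenum arrays. The probe for Ip6k2 had signals of 452 and 1320 on the WT and KO-labelled spinal cord arrays and of 139 and 572 on the WT and KO-labelled duodenum arrays. Its level was thus 1.45 higher on a log2 scale on the KO-labelled than on the WT spinal cord array and 0.21 lower on the KO-labelled than on the WT duodenum array. Where this probe lies relative to the deleted exon was not established, so it does not check the labels, and the arrays are called KO-labelled throughout.

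More of the set was detected in the spinal cord than in the duodenum, with each gene read from 1 probe. On both spinal cord arrays 30 of 31 genes were well above background, against 12 on the WT and 20 on the KO-labelled duodenum array. Of all 32575 genes or identifiers, 24597 and 24784 passed the same test on the WT and KO-labelled spinal cord arrays. On the corresponding duodenum arrays 16883 and 21358 passed it, so detection over the whole array was also lower there. Scn10a, an alpha subunit of nociceptors, failed that test on all 4 arrays. For 10 genes this probe was well above background in the spinal cord alone, namely Scn1a, Scn2a, Kcna2, Kcnab2, Kcnb2, Kcnc2, Kcnd2, Kcnq3, Kcnq5 and Kcnh1. A further 8 genes were also above it on the KO-labelled duodenum array but not on the WT one (Scn3a, Scn7a, Scn2b, Kcna1, Kcna5, Kcnab1, Kcnc1 and Kcnc4), and that array was the brighter of the 2. The remaining 12 were above background on all 4 arrays. In the duodenum 12 of the 31 genes were thus above it on both arrays and 11 on neither. Over all 32575 genes or identifiers these counts were 16812 and 11146. Other probes of Scn1a and Scn2a were well above background on the KO-labelled duodenum array, with signals of 6.56 and 9.91, so that 22 genes had some detected probe there and 12 on the WT array. Fewer cells of a type and less RNA per cell cannot be told apart in these bulk samples.

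**Figure D1:**
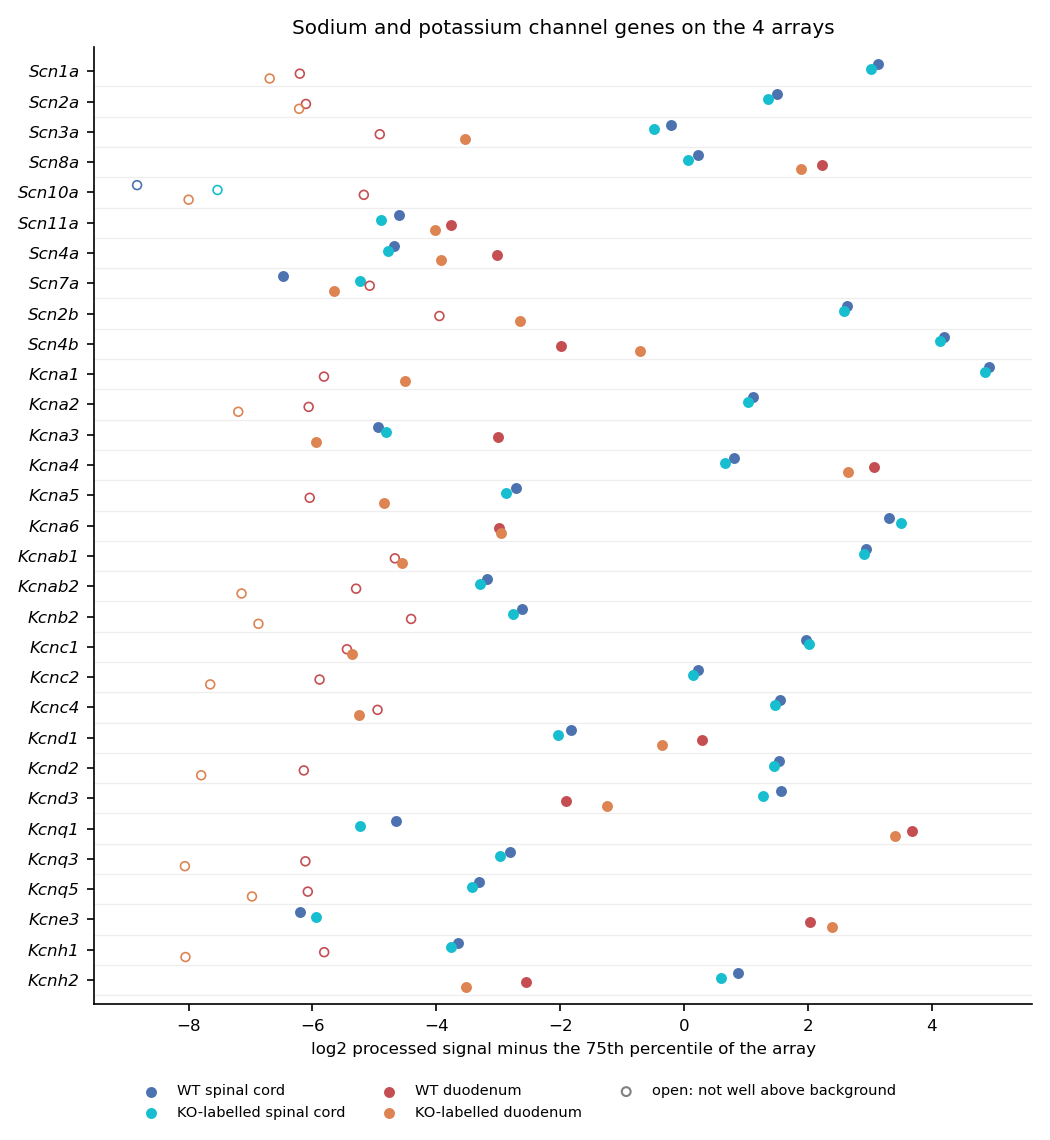
Level of each of the 31 matched channel genes on the 4 arrays, as log2 signal minus the 75th percentile of the array (horizontal axis), with open circles for probes not well above background. The 2 spinal cord arrays lie close together for nearly every gene, and Kcnq1 and Kcne3 are far to the right in the duodenum; levels of different genes come from different probes and cannot be ranked.

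Between tissues, levels are given relative to the 75th percentile of each array, and arrays of a tissue carry different genotype labels, so the WT pair and the KO-labelled pair were kept apart. Of the genes that entered the WT comparison, 7 members were at least 2-fold higher in the duodenum, where 30.2% of all genes were, and 18 were at least 2-fold lower, where 23.1% of all genes were. In the KO-labelled pair 5 members were higher, against 30.3% of all genes, and 22 were lower, against 25.4% of all genes. The median of all genes measured on both arrays was itself 0.63 higher in the WT duodenum and 0.30 higher in the KO-labelled duodenum.

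Kcnq1 and Kcne3 stood on the duodenal side of this split. The signals of Kcnq1 were 36.2 and 25.8 on the WT and KO-labelled spinal cord arrays and 870 and 3416 on the corresponding duodenum arrays, a level 320-fold higher in the WT and 399-fold higher in the KO-labelled duodenum. Those of Kcne3 were 12.3 and 15.9 in the spinal cord and 280 and 1704 in the duodenum, 302-fold and 323-fold higher. A second Kcne3 probe gave 8.47 and 12.2 in the spinal cord and 163 and 1000 in the duodenum. Under every scaling tried both genes were higher in the duodenum, by at least 3.28 for Kcnq1 and 3.20 for Kcne3 on a log2 scale, both with spiked-in controls in the WT pair.

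For other genes the duodenal side depended on how the arrays were scaled or which probe was read. Scn8a, the alpha subunit of mature nodes of Ranvier, had signals of 1066 and 1023 in the spinal cord and 318 and 1192 in the duodenum, which put its level 1.99 higher in the WT and 1.81 higher in the KO-labelled duodenum. Its other 2 probes gave 114 and 441 on the WT spinal cord array and only 1.04 and 1.06 on the WT duodenum array, not well above background, so the probes disagree. Kcna4, a Kv1 subunit of rapidly inactivating currents, had signals of 1579 and 1532 in the spinal cord and 569 and 2030 in the duodenum, a level 2.26 higher in the WT and 1.995 higher in the KO-labelled duodenum. Kcnd1, a Kv4 subunit, had 255 and 238 in the spinal cord and 83.3 and 252 in the duodenum, a level 2.12 and 1.67 higher. The signals themselves were thus lower on the WT duodenum array for these genes, and scaled on spiked-in controls their WT differences became −3.04, −2.77 and −2.91.

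The other genes lay on the spinal side or could not be placed. Kcna1, a Kv1 subunit placed beside nodes of Ranvier, had signals of 27685 and 28311 in the spinal cord and 1.21 and 14.2 in the duodenum, the first of the latter not well above background. Its level was at least 484-fold higher in the spinal cord in the WT pair and 661-fold higher in the KO-labelled pair. Scn1a, an alpha subunit of inhibitory interneurons, had 7985 and 7932 in the spinal cord and 0.923 and 3.12, both not well above background, in the duodenum, at least 140-fold and at least 608-fold lower in the gut, but a second probe gave 32.9-fold in the KO-labelled pair. Kcnc1, a Kv3 subunit of fast-spiking neurons, had 3547 and 3963 in the spinal cord and 1.56 and 7.89 in the duodenum, at least 62.1-fold and 167-fold lower. Its other 2 probes gave 272-fold and 8.62-fold in the KO-labelled pair, so their sizes disagree. Kcnab1, a Kv beta subunit, was at least 122-fold and 177-fold lower in the duodenum, and Kcna6, another Kv1 subunit, 78.9-fold and 87.8-fold lower. Bounds use the dimmest signal called well above background on the dim array or the probe's own signal, whichever was higher.

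The remaining members are given by their role, as the fold by which the spinal cord exceeded the duodenum in the WT and then in the KO-labelled pair. Among sodium channel alpha subunits, Scn2a was at least 44.9-fold and at least 191-fold higher in the spinal cord and Scn3a at least 13.7-fold and 8.33-fold. Another Scn2a probe gave 4.47-fold in the KO-labelled pair, far less than the bound from the first, and others of Scn3a and Kcna5 gave 9.51-fold and 2.16-fold. The beta subunits Scn2b and Scn4b were at least 96.0-fold and 37.4-fold, and 72.4-fold and 28.6-fold, higher. The Kv1 subunits Kcna2 and Kcna5 were at least 34.2-fold and at least 153-fold, and at least 2.41-fold and 3.90-fold, higher. Every one of these genes was therefore past 2-fold in the spinal direction in both pairs.

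Of the Kv2 and Kv3 subunits, Kcnb2 was at least 2.59-fold and at least 11.0-fold higher in the spinal cord, Kcnc2 at least 18.6-fold and at least 82.6-fold, and Kcnc4 at least 46.4-fold and 106-fold. Of the Kv4 subunits, Kcnd2 was at least 45.7-fold and at least 205-fold higher and Kcnd3 11.0-fold and 5.72-fold. Kcnh2 was 10.7-fold and 17.4-fold higher and Kcnq3 at least 2.25-fold and at least 9.54-fold. Bounds in the WT pair were below 2-fold for Kcnab2, Kcnq5 and Kcnh1, at 1.74, 1.59 and 1.26, where the KO-labelled pair gave at least 7.59-fold, 6.92-fold and 5.52-fold. The larger bounds in the KO-labelled pair follow from the lower detection limit of that duodenum array, −6.22 in log2 level against −3.99 on the WT one.

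Dim members had no settled side. Scn11a was 0.84 and 0.86 higher in the duodenum and Scn4a 1.66 and 0.84, from signals of at most 37.3 on any array. Kcna3 was 1.94 higher in the WT duodenum and 1.12 lower in the KO-labelled one. Scn7a gave no fold in the WT pair and was 0.42 lower in the KO-labelled duodenum.

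Between the genotype labels in the spinal cord, the channel genes were nearly level. Of the 30 genes measured on both arrays, 1 was at least 2-fold higher on the KO-labelled array, against 2.28% of all genes, and 0 were at least 2-fold lower, against 0.865% of all genes. A difference within 0.3 on a log2 scale was found for 28 of the 30. The median was −0.11, beside −0.04 for all genes measured on both arrays, whose middle 50% lay between −0.16 and 0.10. Of the 30, 24 lay below the median gene and 6 above it. Technical spread, taken from 399 probes spotted 10 times on each array, was between 0.056 and 0.19 for these differences, with a median of 0.060, and 11 of the 30 lay beyond 2 of these SDs from 0. It covers the spread between spots of 1 array and not that between mice. A Scn2a probe spotted 10 times, for an alpha subunit of central axons, ran from 666 to 786 on the WT array with a median of 747, and from 692 to 754 with a median of 713 on the KO-labelled array, so the 2 ranges of signal overlapped.

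Among the alpha subunits of central neurons, the differences on the spinal cord arrays were −0.11 for Scn1a, −0.14 for Scn2a, −0.27 for Scn3a, an embryonic and early postnatal subunit, and −0.16 for Scn8a. The beta subunits were as close, with Scn2b at 5624 and 5817 and Scn4b at 16619 and 17088, differences of −0.05 and −0.06. Scn11a, an alpha subunit of nociceptors whose cell bodies lie outside the cord, had dim signals of 37.3 and 32.8 and a difference of −0.29 with a technical SD of 0.13. The 6 Kv1 subunits ranged from −0.16 for Kcna5 to 0.19 for Kcna6, whose second probe went from 87.5 to 131. Kcnab1 and Kcnab2 were at −0.03 and −0.11, the Kv2 and Kv3 subunits between −0.15 and 0.06, and the Kv4 subunits between −0.29 and −0.07. For Kcnq3 and Kcnq5, subunits of the M current that damps repetitive firing, the differences were −0.15 and −0.11. Kcnh1 of the EAG family was at −0.11 and Kcnh2 of the ERG family at −0.27. None of the 3 Kcnc1 probes differed by 0.3.

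Scn7a was the 1 gene past 2-fold in the spinal cord. It encodes an atypical sodium channel that senses sodium concentration rather than voltage and is known from glia, Schwann cells included. Its signal was 10.2 on the WT and 25.8 on the KO-labelled array, 2.36-fold higher in level (log2 difference 1.24, technical SD 0.17). Both signals are dim, near the lowest signals called well above background, 4.47 and 4.29 on these arrays. Scn1a, in the same cluster of alpha subunit genes, differed by −0.11. Kcnq1 had the next largest difference, with signals of 36.2 and 25.8, −0.59 on a log2 scale with a technical SD of 0.14. Under normexp, a model-based background correction, the difference of Scn7a became −2.08, or 0.16 once flagged local backgrounds were replaced, and Kcnq1 became −2.03 or −0.28.

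Markers of peripheral nerve and of muscle stood apart on the same KO-labelled spinal cord array. Of 10 Schwann cell markers, 5 were at least 2-fold higher there and 0 lower, with a median of 1.29 over the 9 measured on both arrays, and their summed level went from 47.5 to 62.3 times the 75th percentile. Differences in that list reached down to −0.01, the value of Mal, and Prx, a protein of peripheral myelin chosen after its values were seen, was at 5.23 with signals of 188 and 7564. Of 12 skeletal muscle markers, 11 were at least 2-fold higher and 0 lower, with a median of 3.84 over 11 genes and a summed level of 4.58 on the WT and 70.0 on the KO-labelled array. Ckm, the creatine kinase of muscle, was at 4.58, and Casq1 was the lowest measured on both arrays at 0.88. Scn4a, the alpha subunit of skeletal muscle, had signals of 35.3 and 35.5, a difference of −0.09 with a technical SD of 0.13. Cacna1s and Ryr1, the calcium channels that follow Scn4a in the excitation of muscle, were chosen after their values were seen and differed by 3.10 and 3.66. Of 8 lymphocyte markers, 4 were higher, with a median of 1.00 over 7 and a summed level of 0.545 and 0.978, while Kcna3, a Kv1 subunit best known from T cells, had signals of 29.5 and 34.6 and differed by 0.13. Of 6 blood markers, 4 were at least 2-fold higher and 0 lower, with a median of 1.18 and a summed level of 228 and 351. The 10 neuronal markers had a median of −0.07 with 0 past 2-fold in either direction. The part of these other cell types in the Scn7a value was not tested.

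**Figure D2:**
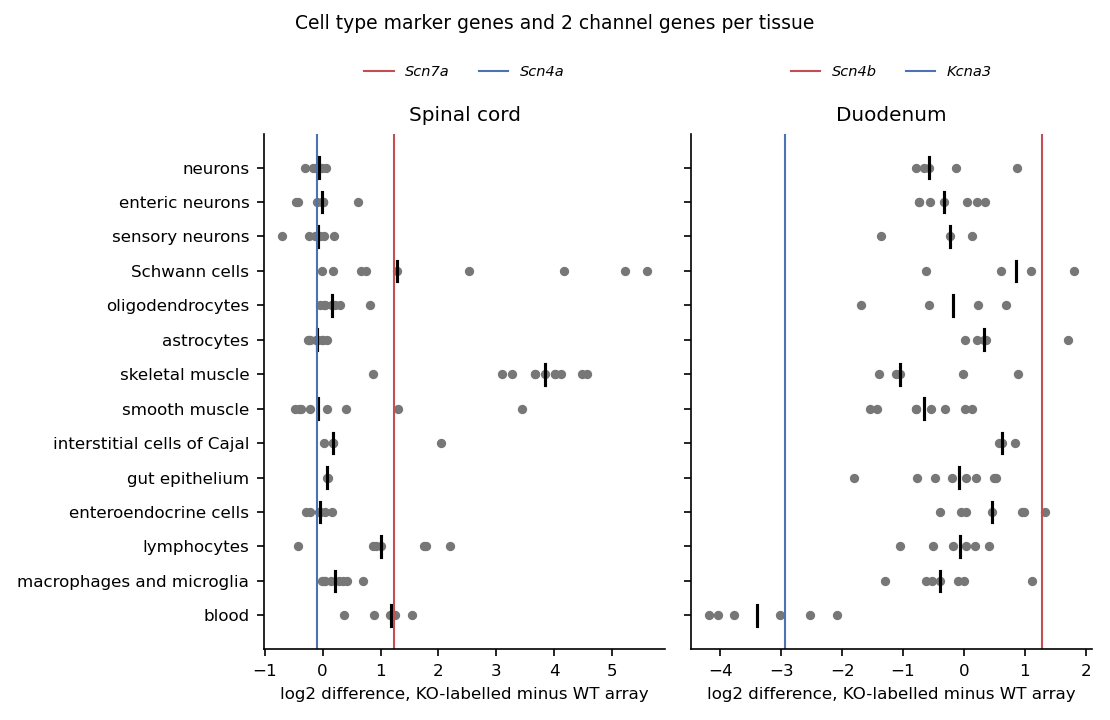
Differences between the KO-labelled and the WT array for marker genes of 14 cell types (points, genes well above background on both arrays; black bars, list medians), in the spinal cord and the duodenum on separate log2 axes. Vertical lines mark Scn7a at 1.24 and Scn4a at −0.09 in the spinal cord and Scn4b at 1.28 and Kcna3 at −2.93 in the duodenum; the skeletal muscle median in the spinal cord is 3.84 and the blood median in the duodenum is −3.39.

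In the duodenum the probe that stood for the gene was well above background on at least 1 array for 20 of the 31 genes, and on neither for 11. Of the 20, 12 were measured on both, 2 gave a bound and 6 gave no fold because their level after scaling was not above the dimmest detectable level of the WT array. Members at least 2-fold higher on the KO-labelled array numbered 2, against 7.2% of all genes, and 1 was at least 2-fold lower, against 11.9% of all genes. The median over the 12 was −0.31, beside −0.11 for all genes, whose middle 50% lay between −0.67 and 0.41. Of the 12, 8 lay below the median gene and 4 above it. Technical SDs were larger than in the spinal cord, from 0.069 to 0.43, and 10 of the 12 lay beyond 2 of them.

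**Figure D3:**
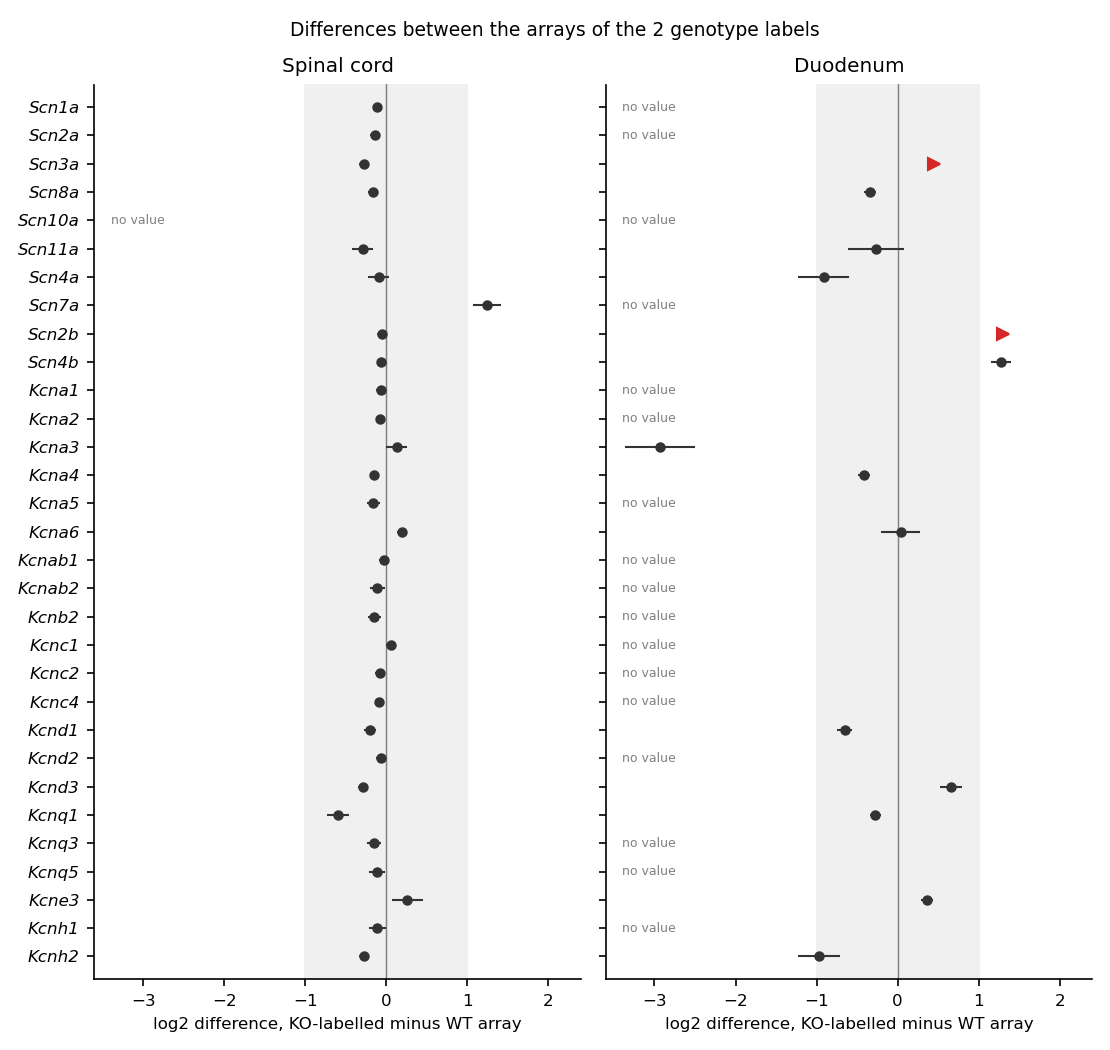
Difference between the KO-labelled and the WT array for each channel gene in the spinal cord and the duodenum, on a log2 scale, with bars of 1 technical SD, red triangles for lower bounds of a difference and a grey band for differences under 2-fold. In the spinal cord Scn7a alone lies outside the band; in the duodenum Scn4b and Scn2b lie above it and Kcna3 below it.

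The 2 genes on the higher side were the beta subunits. Scn4b, whose product speeds the reopening of sodium channels during rapid firing, had a signal of 17.3 on the WT and 198 on the KO-labelled duodenum array, a level 2.42-fold higher (log2 difference 1.28, technical SD 0.13). Scn2b, which is bound covalently to the alpha subunit, had 4.40 on the WT array, not well above background, and 51.6 on the KO-labelled array, at least 2.47-fold higher. Both genes had far brighter signals in the spinal cord, where neither differed by 0.1. Scn3a, with 2.26 and 27.7 and the first not well above background, was at least 1.36-fold higher. Of the other alpha subunits, Scn8a was at −0.34, Scn11a at −0.26 with signals of 5.01 and 19.8 and a technical SD of 0.35, and Scn4a at −0.91 with signals of 8.38 and 21.2. Under normexp with an offset of 50, which is above the WT signal of both beta subunits, Scn4b differed by 0.03 and Scn2b gave no value.

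Markers of the cells that could carry these channels did not share a direction in the duodenum. Of 10 neuronal markers, 1 was at least 2-fold higher and 0 lower, and the median over the 5 measured on both arrays was −0.57. Of these 5, 4 were below 0 and 1, Stmn2, was above it at 0.87. The summed level went from 19.4 to 11.8, but most of it was Snap25. Its signals were 1210 on the WT and 3344 on the KO-labelled array, of 1317 and 3807 for the list. Of 10 enteric neuron markers, 0 were past 2-fold, and the median over 7 was −0.32. Of 8 enteroendocrine markers, 1 was higher, Chgb at 1.33, and the median over 7 was 0.46, with a summed level of 110 and 125. Of 10 Schwann cell markers, 2 were higher and 0 lower, and 6 were not well above background on the WT array. The 4 measured on both arrays ran from Sox10 at −0.62 to Mal at 1.80, with a median of 0.86. The summed level of the Schwann cell list went from 1.19 to 2.48. Of 8 astrocyte markers, which glia of the gut share in part, 1 was higher, S100b at 1.72. The part of these cells in the Scn4b and Scn2b values was not tested.

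Kcna3 was the 1 gene at least 2-fold lower. Its signals were 8.50 on the WT and 5.28 on the KO-labelled duodenum array, a level 7.64-fold lower (log2 difference −2.93, technical SD 0.43), and both lie close to the lowest signals called well above background, 4.29 and 4.33. Scaled on spiked-in controls the difference was 0.07, where the median of all genes moved to 2.89. Of 8 lymphocyte markers, 0 were at least 2-fold higher and 1 lower, Cd79a of B cells at −1.06, with a median of −0.07 over the 6 measured on both arrays and a summed level of 10.2 on the WT and 8.56 on the KO-labelled array. Cd3e, a part of the T cell receptor and the brightest of that list, differed by −0.51. The T cell genes Cd3g, Cd3d and Cd2 differed by 0.41, 0.19 and 0.04. Of the 6 lymphocyte markers measured on both arrays, 3 lay above 0 and 3 below it. All 6 markers of blood were at least 2-fold lower, with a median of −3.39 and a summed level of 1532 on the WT and 88.4 on the KO-labelled array. The part of blood in the Kcna3 value was not tested.

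The other 7 potassium channel genes measured on both duodenum arrays were within 2-fold. Kcna4 differed by −0.41. Kcna6 differed by 0.04 with signals of 8.58 and 41.7, but by −1.09 for the mean of its 2 probes, the second below background, and by −1.01 under normexp. The Kv4 subunits went opposite ways, Kcnd1 at −0.65 with signals of 83.3 and 252 and Kcnd3 at 0.66 with 18.2 and 137, while the third, Kcnd2, was below that limit on the WT and the KO-labelled array. A second Kcnd3 probe was below it on these arrays too, and averaged over both probes Kcnd3 differed by −0.20. Kcnh2, an ERG subunit that sets the resting potential of gut smooth muscle, had signals of 11.6 and 28.1 and differed by −0.97, just inside 2-fold, or by −1.36 under normexp. Smooth muscle markers differed by a median of −0.66, with 2 of 8 at least 2-fold lower and a summed level of 133 and 75.9. Kcnq1 and Kcne3 differed by −0.27 and 0.36, with technical SDs of 0.069 and 0.074, beside a gut epithelium median of −0.08. The sign of Kcnq1 rests on the scaling, since it was 0 in the deposited table and 0.33 under normexp.

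**Figure D4:**
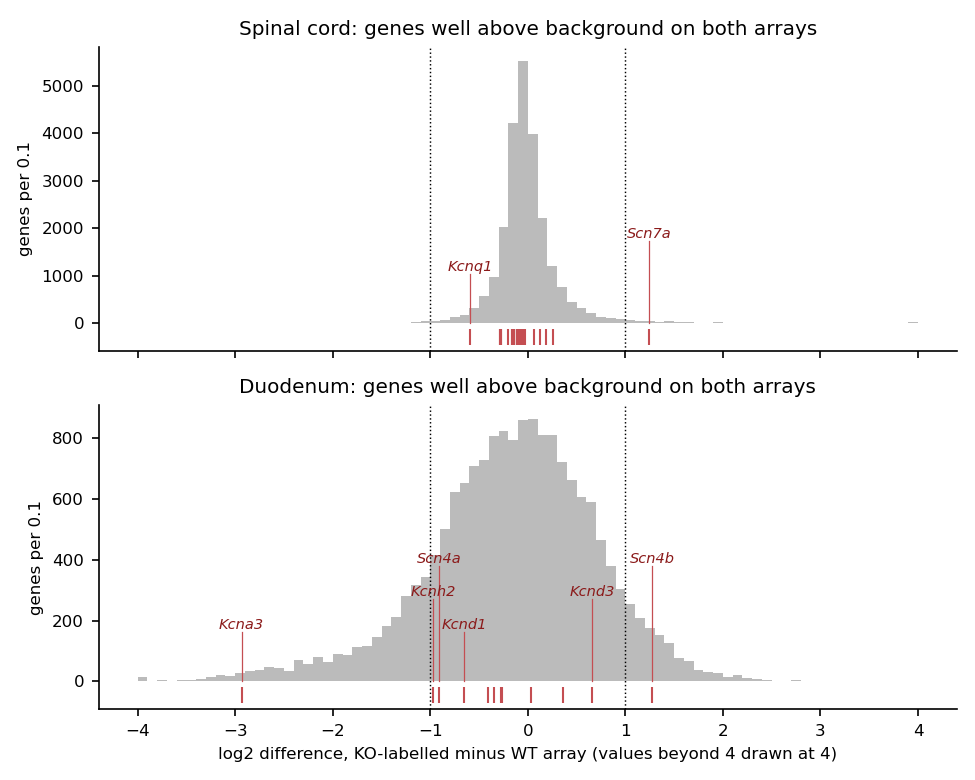
Distribution of the difference between the KO-labelled and the WT array over all genes well above background on both arrays of a tissue (grey, counts of genes per 0.1 on the log2 axis), with the channel genes as red ticks and dotted lines at 2-fold. The distribution of the spinal cord is narrow and that of the duodenum wide, and the medians of all genes are −0.04 and −0.11.

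Other genes of the same machinery, 63 in 6 lists of which 62 were matched, were read for comparison. In the spinal cord 59 of the 62 were measured on both arrays, with a median of −0.10. At least 2-fold higher were 0, against 2.28% of all genes, and 1 was lower, against 0.865%. That gene was Kcne2, a potassium channel accessory subunit abundant in the choroid plexus, with signals of 103 and 32.96 and a difference of −1.74. In the duodenum 37 of the 62 entered the comparison, and 23 of these were measured on both arrays. Among the 37, 0 were at least 2-fold higher, against 7.2% of all genes, and 8 were lower, against 11.9%. The median over the 23 was −0.73, below the −0.11 of all genes. Among the lower genes was Fgf14, a cytoplasmic partner of sodium channels, at −3.15 with signals of 21.8 and 11.7. Hcn2, a pacemaker channel, had 5348 and 4969 and differed by −2.35. Kcna7, Kcnh3, Kcnh4 and Kcnip2 lay between −1.23 and −1.01. Unscaled signals of Fgf14 and Hcn2 were lower on the KO-labelled array although that array was the brighter of the 2.

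**Figure D5:**
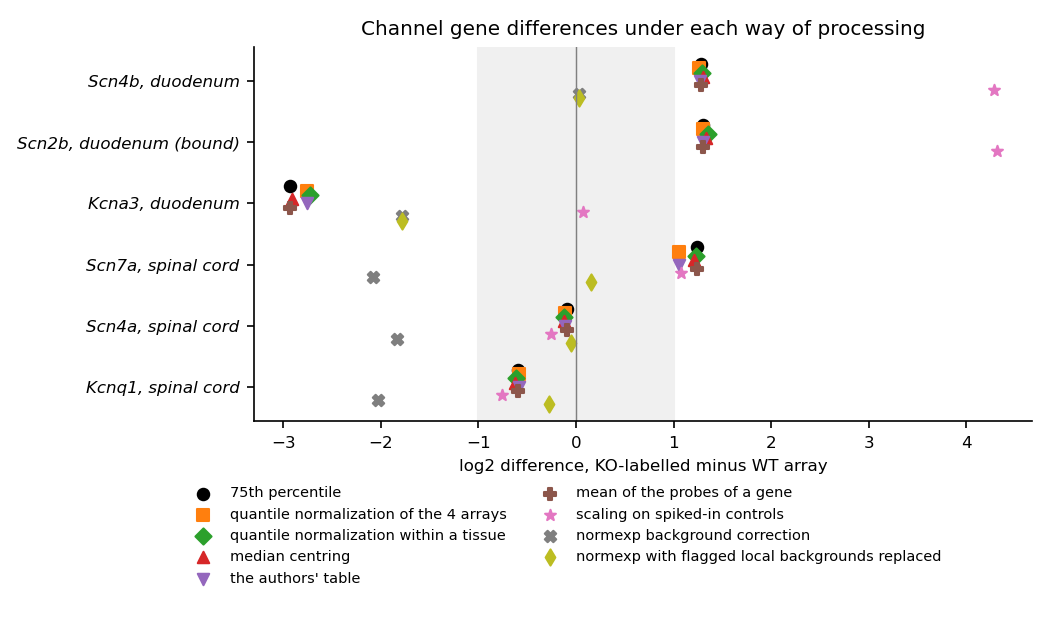
Difference between the KO-labelled and the WT array for 6 channel gene values (rows) under 9 ways of processing (symbols), on a log2 axis with a grey band for differences under 2-fold. Scn4b and Scn2b lie above the band and Kcna3 below it under the 75th percentile, quantile, median and deposited values, and normexp and spiked-in controls move them.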

How the data were processed

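Per the labels, total RNA was labelled with Cy3 and hybridised to 1 Agilent array per group, and RNA integrity numbers exceeded 7.0. The authors deposited each array's scanner output from Agilent Feature Extraction 11.5.1.1, whose processed signal is a background-subtracted intensity. They also deposited a table of log2 values, which served as an alternative. It was set against a quantile normalization of the processed signals, those under 1 raised to 1, where probes were well above background. For the channel probes the 2 differed by at most 0.00428 (median 0.000831), and over all probes by at most 8.03 (median 0.000998). Coordinates in the scanner files are on mm9 and were not used. Outlier spots (89 to 133 per array) and controls were dropped, spots of a probe were averaged, and the log2 intensity minus the 75th percentile of the array was taken. Each gene was read from 1 probe, the one whose mean level across all 4 arrays was highest. Of 26391 probes with an NM accession, 25868 were named through RefSeq (GRCm38.p6). A gene well above background on 1 array gave a bound, or no fold where its level did not exceed the dimmest detectable level of the other array. A gene well above background on neither array gave no value. Calls were differences of at least 2-fold. With 1 array per group no test was run, and the number of arrays limits the precision. Technical SDs came from the 50 repeated probes nearest in brightness. The software's own error for the channel genes was 10.0% of the signal at the median. The steps were tested on simulated data. All channel genes were named, with at most 2 per direction and tissue of each pathway list and the brightest and extreme genes of each marker list. The channel genes and all lists were chosen with earlier results of these data known. Alternatives were 2 normexp corrections (limma 3.58.1 in R 4.3.3, offset 50), 2 quantile normalizations, median centring, scaling on 8 spiked-in controls, the deposited table, averaging all probes of a gene, 2 detection filters and a threshold of 1.5-fold. Remaining steps ran in Python 3.11.15 (numpy 2.4.6, pandas 2.3.3). Values of some listed genes are not reported here.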

Additional observations from a re-analysis of the deposited data

Results flagged for a closer look

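Scn4b differed between the genotype labels by 1.28 in the duodenum and by −0.06 in the spinal cord on a log2 scale, so that its difference was 1.34 larger in the duodenum. It drew attention because the 2 values had opposite signs. Each value rests on 1 array per group, and the difference between the tissues was not tested. The spinal cord value lies near its technical SD of 0.057 and near the median of all genes, −0.04. Under the alternatives it ran from −0.23 to 0.32, so it has no settled direction. The duodenum value ran from 0.03 to 4.28 under the alternatives.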

How the results depend on the processing

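No paired analysis was possible because each group is a single array. Quantile normalization, over the 4 arrays or within a tissue, and median centring kept the counts of members past 2-fold between the genotype labels at 2 higher and 1 lower in the duodenum and 1 higher and 0 lower in the spinal cord. In the duodenum, members higher numbered 0 under both normexp corrections, 19 with spiked-in controls, 5 in the deposited table, 1 when both arrays had to be well above background and 5 with no filter, and members lower numbered 5 under both normexp corrections, 0 with spiked-in controls, 3 for the mean of the probes, 9 with no filter and 4 at 1.5-fold. Their median difference was 2.70 with spiked-in controls, where that of all genes was 2.89, and −0.53 for the mean of the probes. In the spinal cord, members higher numbered 0 under both normexp corrections and 2 with no filter, members lower numbered 12 under plain normexp and 1 at 1.5-fold, and the median was −0.28 with spiked-in controls. Plain normexp put 38.3% of all genes at least 2-fold lower in the KO-labelled spinal cord and 0.341% higher, with a highest local background of 15708 on the WT array, against 0.0754% and 0.686% after flagged backgrounds were replaced. In the duodenum 96.2% of all genes were higher and 0.084% lower with spiked-in controls, and with no filter 7.56% and 38.5%. Of all genes there, 3.9% were higher and 14.3% lower under both normexp corrections, and 15.3% were higher in the deposited table. The share higher was 7.37% when both arrays had to be well above background. The share lower was 12.4% for the mean of the probes and 22.55% at 1.5-fold. In the spinal cord 3.39% of all genes were higher with no filter and 3.2% lower at 1.5-fold.

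Between the tissues, spiked-in controls gave 2 higher and 28 lower in the WT pair, against 3.43% and 92.3% of all genes. They gave 2 higher in the KO-labelled pair, against 9.56% of all genes. Both normexp corrections gave 8 higher in the KO-labelled pair, against 33.2%. Requiring both arrays above background left 4 lower in the WT pair, against 21.7%, and 12 in the KO-labelled pair, against 22.2%. Single genes at least 2-fold apart that changed sign with spiked-in controls were Kcna3 in the duodenum between labels (0.072), Scn8a (−3.04), Scn4a (−3.38), Kcna3 (−3.10), Kcna4 (−2.77) and Kcnd1 (−2.91) between WT tissues, and Scn8a (−0.052) and Kcnd1 (−0.19) between KO-labelled tissues. The mean of the probes turned Scn8a to −2.01 in the WT and −3.47 in the KO-labelled pair. Plain normexp turned Scn7a in the spinal cord to −2.08, and Kcna3 between the KO-labelled tissues became 0.76 and 0.75 under the 2 normexp corrections. Of 445 values of single genes under the alternatives, 245 lay within the technical SD of the main value, and 52 had the other sign. Of these 52, 13 (all given here) came from a difference of at least 2-fold and 39 from a smaller one. Single-gene differences between tissues were followed for Kcnq1, Kcne3, Scn8a, Kcna4, Kcnd1, Kcna3 and Scn4a alone. Those of the other members were not checked one by one. With spiked-in controls 8 of the genes measured on both duodenum arrays had the other sign between labels. The normexp offset of 50 exceeds the WT duodenum signals of Scn4b and Kcna3, and no other offset was run. The causes were not tested. Signals near background in the WT duodenum limit all values there.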

Other observations

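Genes of the axon initial segment and of nodes of Ranvier, which hold these channels in place, were level in the spinal cord. Of 13 such genes 0 were past 2-fold there, and the median was −0.08 with a range from −0.25 to 0.09. In the duodenum 5 of the 13 were measured on both arrays, and they lay between −0.77 for Ank3, the scaffold of the initial segment, and 0.48 for Nfasc, an adhesion molecule of the node. Of 10 silent potassium channel subunits, which alter other subunits and form no channel alone, 9 were measured in the spinal cord, with 0 past 2-fold and a range from −0.58 to 0.12, and 1 in the duodenum, Kcns3 at 0.17.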
